A study of Mus musculus with 9 samples.

Results

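Conventional natural killer (NK) cells were examined in single-cell RNA profiles of livers in which the transcriptional co-activator YAP was switched on. A cell with at least 200 detected genes was counted as an NK cell when it held at least 2 unique molecular identifiers (UMIs, the count of captured transcripts) of Ncr1, Klre1 and Klrb1c together and at least 1 UMI of Klra4, Klra8 and Cma1 together. It also had to hold no UMI of the T cell genes Cd3d and Cd3e or the B cell gene Cd79a, and fewer than 5 UMIs of the macrophage genes C1qa, C1qb and C1qc. Of 8562 cells, 8527 had at least 200 genes and 211 were NK cells. The members were thus chosen by their own transcript counts, and the 12 genes of this rule were not tested.

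Whole livers of 9 C57BL/6 mice were digested and profiled, 1 droplet library per mouse. WT (n = 2) carried the genotype ROSA26-rtTA-IRES-EGFP; WT and ate doxycycline food for 7 days. YAP3d (n = 4) and YAP7d (n = 3) carried ROSA26-rtTA-IRES-EGFP; tetYAP and ate it for 3 and 7 days. All 9 mice thus carried rtTA and received doxycycline. The methods of the study describe the activated S127A form of YAP, with rtTA released by a Cre driven from the albumin promoter, so that induction was aimed at hepatocytes and not at NK cells. YAP3d and WT differed in both genotype and days of doxycycline, which cannot be told apart.

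Conventional NK cells are innate lymphocytes that kill target cells by releasing perforin and granzymes. They read a balance of activating and inhibitory receptors, many of them of the Klr family, to which the Ly49 receptors encoded by Klra genes belong. In mice they mature from cells with high Cd27 to cells with high Itgam and Klrg1. Zeb2, Tbx21 and Klf2 encode factors of that maturation, and S1pr5 encodes a lipid receptor that mature NK cells use to leave tissues for the blood. The liver also holds a resident relative, the type 1 innate lymphoid cell (ILC1), which carries Cxcr6, Itga1 and Cd200r1.

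WT libraries held 9 and 22 NK cells. YAP3d libraries held 8, 22, 5 and 31, and YAP7d libraries 54, 21 and 39. The UMIs summed over the NK cells of a library ran from 21312 (YAP3d replicate 3) to 446449 (YAP7d replicate 1). The libraries held 281 to 2551 cells, and 93 cells shared a barcode with a cell of another library, among them 2 NK cells. Scrublet called 60 doublets (0.704% of cells), of which 1 was an NK cell, and these cells were kept. Some libraries stood apart. Gm10709, a predicted transcript, was high in YAP3d replicates 1 and 2 and in all 3 YAP7d libraries. It had 347 to 611 counts per 1000000 UMIs (CPM) over all cells there, but 3.65 to 11.2 in the other 4. Every YAP7d library and no WT library was thus high, so this trait cannot be told apart from group in YAP7d against WT. Median UMIs over all cells were 3231 to 5083 in WT and YAP3d, and 7546, 5717 and 11471.5 in YAP7d replicates 1, 2 and 3. The methods of the study give version 2 reagents for the libraries of entire liver tissue, to which all 9 belong by their titles, while the labels name versions 2 and 3 for every sample.

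The rule rested on varied receptor combinations. Of the 211 cells, 41 held UMIs of Klra4, Klra8 and Cma1, 44 of Klra4 and Klra8, 31 of Klra8 and Cma1, and 9 of Klra4 and Cma1. A further 35 held Klra8 alone, 31 Cma1 alone and 20 Klra4 alone. Just inside the rule lay 19 cells with a single UMI of the 3 genes, with 9454 CPM of the granzyme gene Gzma in their summed counts. Just outside lay 148 cells that passed every other criterion with none, at 6486 CPM of Gzma. Of these 148 cells, 86 held Cxcr6, Itga1 or Cd200r1 and are called ILC1-like, and 62 did not. At the receptor limit, 3 NK cells held just 2 UMIs of Ncr1, Klre1 and Klrb1c, and 4 cells missed it with 1. Another 30 cells were left out for Cd3d or Cd3e. Klra4, Klra8 and Klra9 are close paralogs, so reads could have been assigned between them or dropped, and their separate values are uncertain.

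Markers outside the rule were compared between NK cells and the neighbouring classes. Over libraries with at least 5 cells of a class, NK cells averaged 200 CPM of Eomes, the T-box factor of conventional NK cells (SD 90.9, n = 9), against 17.4 in ILC1-like cells (SD 25.8, n = 7) and 6.77 in T cells (SD 5.82, n = 9). Prf1, the perforin gene, averaged 292 CPM in NK cells (SD 184) and 62.6 in ILC1-like cells (SD 38.5). S1pr5 averaged 145 CPM (SD 91.9) against 4.05 (SD 10.7). Klra7 and Klra3, further Ly49 receptor genes, averaged 615 and 395 CPM in NK cells and 16.4 and 8.59 in ILC1-like cells. Both are paralogs of Klra4 and Klra8, so the gate itself bears on these levels and they say little about the label. The 62 cells with NK receptors, none of Klra4, Klra8 and Cma1 and no residency gene lay between the 2 classes (6 libraries), at 95.3 CPM of Eomes (SD 75.2), 123 of Prf1 (SD 68.2), 32.6 of S1pr5 (SD 44.1), 230 of Klra7 (SD 217) and 800 of Klf2 (SD 127). These traits thus did not end at the limit of the rule. Residency genes were at or near 0 in NK cells. Cxcr6 had 5 counts, Cd200r1 1, Itga1 5, Il7r 5 and Inpp4b 0 among the 1330355 UMIs of all NK cells, and 11 of the 211 cells held Cxcr6, Itga1 or Cd200r1. ILC1-like cells had the higher mean CPM of Xcl1 (3389 against 793), Gzmc (871 against 5.97), Ltb (601 against 80.5) and Klrc1 (846 against 275), and also of Gzmb (3307 against 1608), while Klf2 was at 260 against 1514. The T cell gene Cd3g, outside the gates, averaged 1187 CPM in ILC1-like cells (SD 660), beside 1100 in T cells (SD 221). It averaged 53.5 in NK cells (SD 81.6) and 457 in the 62 cells between (SD 476). These class levels describe gates that were set on the transcripts themselves, and were not tested. Gzma, at 11350 CPM (SD 2283), and the chemokine gene Ccl5, at 21679 CPM (SD 10199), were among the most abundant NK transcripts.

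Genes used by the rule are given as levels alone, in CPM after scaling of the NK sums by the trimmed mean of M values (normalized CPM). Ncr1, the NKp46 receptor gene on chromosome 7, had 493 and 895 in WT, 955 to 1311 in YAP3d and 453 to 910 in YAP7d. Klra4 had 820 to 1324 in WT, 985 to 1562 in YAP3d and 840 to 1114 in YAP7d. Klra8 had 1016 and 1357 in WT, 651 to 1715 in YAP3d and 509 to 894 in YAP7d. Cma1, a mast cell protease gene also read in NK cells, had 339 and 386 in WT, 224 to 1128 in YAP3d and 118 to 337 in YAP7d. Klre1 averaged 1135, 1089 and 663 and Klrb1c 903, 916 and 716 in WT, YAP3d and YAP7d. Since these genes chose the cells, nothing is read from their levels between groups. Mast cell and basophil markers other than Cma1 were almost absent, with 0 to 18.8 CPM over the whole list, and 8 of its genes, among them Mcpt4, Fcer1a and Gata2, at 0.

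Yap1 was not seen in these cells, where a transcript of the transgene was not looked for by its own sequence. Yap1 had 0 counts in the NK cells of all 9 libraries, which allows a level of up to 2.26 CPM over the 1330355 UMIs. The YAP partner genes Tead1 to Tead4 and the YAP targets Ctgf and Cyr61 also had 0 counts there, while the YAP target Ankrd1 and the YAP paralog Wwtr1 had 1 count each. Alb, the albumin gene of hepatocytes, had 16 counts.

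Whether NK cells became more frequent was asked with 2 denominators. The share of all cells was 1.73% and 1.55% for WT mice (1.64% ± 0.123, SD, n = 2), 2.85%, 4.98%, 1.18% and 1.22% in YAP3d (2.56% ± 1.79, n = 4) and 9.02%, 4.56% and 2.13% in YAP7d (5.23% ± 3.49, n = 3). All YAP7d libraries lay above WT, but they overlapped YAP3d. In YAP3d, the 2 libraries with Gm10709 transcripts had the larger shares. As a share of NK, ILC1-like and T cells together, they took 10% and 7.01% for WT mice (8.50% ± 2.12), 10.1%, 20.2%, 5.95% and 7.38% in YAP3d (10.9% ± 6.42) and 39.4%, 30.4% and 19.0% in YAP7d (29.6% ± 10.2). A single YAP3d library, replicate 2, exceeded the lowest YAP7d library.

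**Figure D1:**
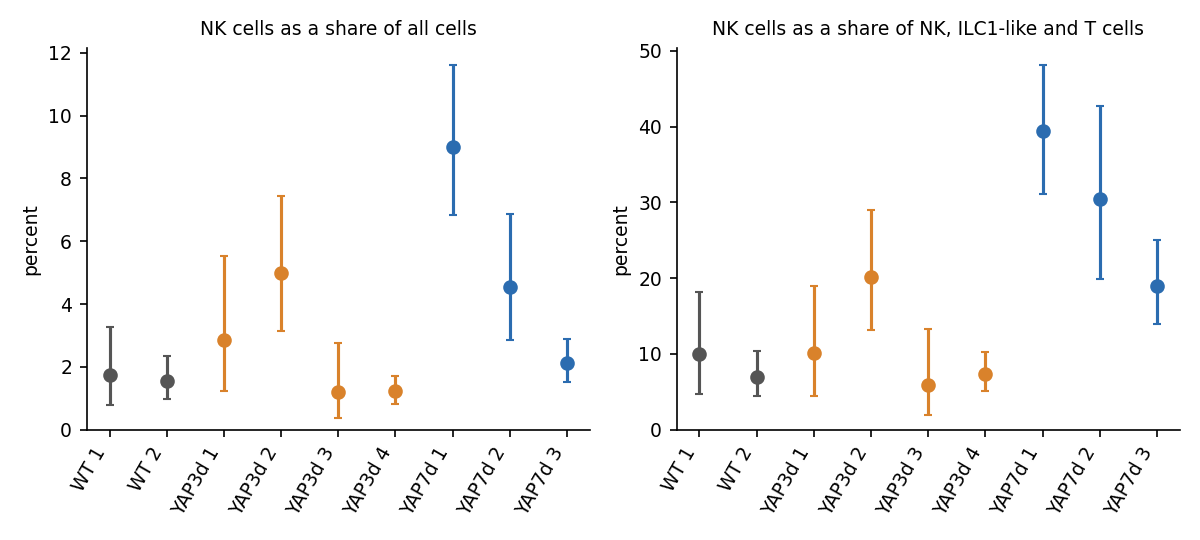
Percent of NK cells among all cells (left) and among NK, ILC1-like and T cells (right), 1 point per library with its exact Clopper-Pearson 95% interval. On the right the YAP7d libraries lie between 19.0% and 39.4% and the WT libraries at 7.01% and 10%.

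The differences did not pass the exact permutation tests. For the lymphocyte share, the 3 groups gave p = 0.0563, YAP7d minus YAP3d 18.7 points with p = 0.0857 and YAP7d minus WT 21.1 points with p = 0.2, all two-sided and exact, where 0.1 is the smallest p for 3 against 2 libraries. Adjusted over 8 tests these values became 0.342 each. For the share of all cells the 3 groups gave an exact permutation p = 0.213. Without YAP7d replicate 1, YAP7d minus YAP3d in that share went from 2.68 to 0.785 points and YAP7d minus WT from 3.59 to 1.70 points. With each cell thinned to 1500 UMIs, the lymphocyte share of the 3 groups gave an exact permutation p = 0.0127, unadjusted. YAP7d minus YAP3d gave an exact permutation p = 0.0286, also unadjusted. The gates were applied to the thinned counts, which loosens the C1q limit and loses T cells with few Cd3 UMIs. In YAP7d replicate 3, NK cells went from 39 to 48, T cells from 157 to 111 and the share from 19.0% to 29.6%.

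The limit on C1q touched the YAP7d libraries most. It left out 25 further cells of YAP7d replicate 3, which otherwise met the rule, 1 of YAP7d replicate 2 and 0 elsewhere. Of cells that otherwise met the T cell gate, it left out 49, 2 and 1 in YAP7d replicates 3, 2 and 1. It left out 5 such cells in WT replicate 2. Mean C1q UMIs per retained NK cell were 0 to 0.4 in WT and YAP3d, and 0.796, 1.71 and 2.51 in YAP7d. T cells moved in the same way, with 0.608, 1.19 and 1.96 in YAP7d. Of the retained NK cells of YAP7d, 27 of 54, 5 of 21 and 0 of 39 were free of C1q. Without the limit the lymphocyte share of the 3 groups gave an exact p = 0.0286. With cells without any C1q alone, the share of all cells averaged 1.33% in WT, 2.26% in YAP3d and 1.86% in YAP7d. That limit itself removed most NK cells of YAP7d, so these shares do not measure how frequent NK cells were. The lymphocyte share of such cells gave an exact p = 0.632 over the 3 groups, with YAP7d minus YAP3d at 8.11 points and YAP7d minus WT at 10.6 points. The part of C1q transcripts from outside the cells in the results was not tested.

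NK cells of YAP7d held more captured transcripts. Median UMIs per NK cell were 3778 and 3831.5 in WT, 3264.5, 4499.5, 4406 and 3543 in YAP3d and 7400.5, 5350 and 6890 in YAP7d. Every YAP7d library exceeded every other library, by 1.67-fold on average over YAP3d (exact permutation p = 0.0286, the smallest that 3 against 4 libraries allow). In T cells of the same libraries the ratio of YAP7d to YAP3d was 1.07 (exact p = 0.429). The NK median divided by the T cell median was 0.822 and 0.870 in WT, 0.721 to 0.966 in YAP3d and 1.23 to 1.46 in YAP7d. This ratio also differed between YAP7d and YAP3d (exact permutation p = 0.0286), and in YAP7d minus WT reached the smallest possible exact p = 0.1. The YAP3d libraries with Gm10709 transcripts, at 3264.5 and 4499.5, lay below all YAP7d libraries as well. ILC1-like cells had median UMIs of 3933 ± 512 in YAP3d and 7356 ± 385 in YAP7d, though YAP7d replicate 2 held 1 such cell. These tests were chosen after the values were seen. The shallowest cell of a library held 2461, 2443 and 4041 UMIs in YAP7d, and 822 to 1734 in WT and YAP3d. Among NK cells it held 2614, 2672 and 4151 in YAP7d, and 1076 to 3156 in WT and YAP3d. In YAP7d replicate 3 the shallowest NK cell thus lay above the WT medians of NK cells. Whether all-cell depth, which also rose in YAP7d, or this lower end has a part was not tested.

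**Figure D2:**
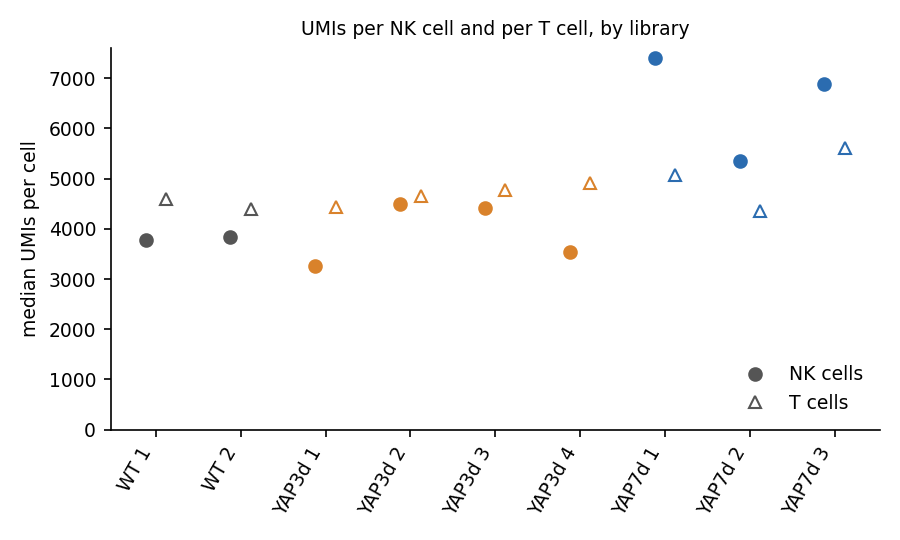
Median UMIs per cell in each library for NK cells (filled circles) and T cells (open triangles), on an axis from 0. NK medians lie below those of T cells in all WT and YAP3d libraries and above them in the 3 YAP7d libraries, by 1.23 to 1.46 times.

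Genes were compared on counts summed over the NK cells of each library, with edgeR's quasi-likelihood test on 2572 genes and Benjamini-Hochberg adjustment. YAP7d against YAP3d gave 57 genes at an adjusted p below 0.05 (2.22% of genes tested), 37 higher (1.44%) and 20 lower (0.778%). YAP7d against WT gave 3 genes (0.117%), all lower. YAP3d against WT gave 0 genes by edgeR (0%), with 79 at an unadjusted p below 0.05. DESeq2 called 126, 56 and 0 genes in the same order of comparisons. Of the 57 genes, 54 did not overlap between the groups in normalized CPM, against 18.5% of all genes tested.

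The count of 57 calls depended on single libraries. It was 2 without YAP3d replicate 3, 3 without YAP3d replicate 1, 8 without YAP3d replicate 4, 3 without YAP7d replicate 1 and 36 without YAP7d replicate 2, but 94 without YAP3d replicate 2 and 87 without YAP7d replicate 3. With libraries of at least 10 NK cells, or NK cells without C1q, it was 0 by edgeR, so that none of the 57 genes passed there in this comparison, and with a term for libraries with Gm10709 transcripts it was 3. Directions moved less: of the 57 genes, Igfbp7 alone turned sign under an alternative, the replicate term. The 57 were chosen for their difference in these same libraries, so a kept direction adds little.

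Genes of the mature stage gave 4 of the falls between YAP3d and YAP7d and 1 of the rises. Of 11 listed genes 9 were tested, 4 fell (Klf2, Zeb2, Klrg1 and S1pr5), 1 rose (Gzmb) and 4 did not pass. The median log2 difference of the 9 was -1.22 (-1.35 to -0.62 under other settings), beside 0.00 over all genes tested, and -0.71 in YAP7d against WT, where none passed. Klf2 (chromosome 8, 72319062 to 72321654, GRCm38.p6) encodes a factor that keeps lymphocytes quiescent. It had 1601 and 1941 normalized CPM in WT, 1970, 1639, 2387 and 1464 in YAP3d and 771, 949 and 643 in YAP7d. YAP7d lay below both other groups, by -1.22 ± 0.22 (log2, SE) against YAP3d (edgeR adjusted p = 0.0157) and by -1.19 ± 0.25 against WT (adjusted p = 0.0661). The difference to YAP3d was -0.57 in NK cells without C1q, and the call was also lost without the filter on low counts and with the Gm10709 term.

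Zeb2 (chromosome 2, 44983512 to 45117442) had 216 and 188 normalized CPM in WT, 511, 288, 564 and 258 in YAP3d and 126, 173 and 76.0 in YAP7d. It was highest in YAP3d, without passing there against WT, and YAP7d lay below YAP3d by -1.59 ± 0.36 (log2) (edgeR adjusted p = 0.0357), which became -0.67 in NK cells without C1q. Klrg1 (chromosome 6, 122270596 to 122282833), an inhibitory receptor gene of terminally mature cells, had 30.8 and 84.8 in WT, 292, 128, 347 and 207 in YAP3d and 52.5, 94.1 and 72.6 in YAP7d. YAP7d lay below YAP3d by -1.59 ± 0.38 (edgeR adjusted p = 0.0361) and overlapped WT, with a log2 difference of -0.02 ± 0.55 (adjusted p = 0.996). S1pr5 (chromosome 9, 21242917 to 21248443) had 308 and 132 in WT, 146, 128, 217 and 172 in YAP3d and 50.2, 86.3 and 31.1 in YAP7d. It was lower in YAP7d than in every other library, by -1.61 ± 0.41 against YAP3d (edgeR adjusted p = 0.0467) and -1.87 ± 0.49 against WT (adjusted p = 0.119). Of 9 fits that left out 1 library each, Klf2 and Zeb2 passed against YAP3d in 6, Klrg1 in 5 and S1pr5 in 4.

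Itgam, the CD11b gene, had 216 and 170 normalized CPM in WT, 109 to 260 in YAP3d and 45.6 to 102 in YAP7d, a difference of -1.37 ± 0.37 to YAP3d that missed the threshold (edgeR adjusted p = 0.0558). Irf8, a factor of NK responses, differed by -0.07 (adjusted p = 0.927) and Prf1 by -0.23 ± 0.48 (edgeR adjusted p = 0.844). The immature stage did not mirror the mature one: of its 11 genes 9 were tested, 0 passed, 7 lay higher in YAP7d than in YAP3d and the median was 0.53, but against WT the median was -0.55 and under other settings the first median ran from -0.09 to 0.78. Cd27 averaged 143 ± 15.6 normalized CPM in WT, 63.5 ± 27.3 in YAP3d and 96.5 ± 30.0 in YAP7d.

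Gzmb, the granzyme B gene (chromosome 14, 56258836 to 56262334), rose in YAP7d. It had 1262 and 810 normalized CPM in WT, 1058, 1055, 781 and 1937 in YAP3d and 2397, 3350 and 2070 in YAP7d. YAP7d was above all other libraries, by 1.04 ± 0.26 (log2) against YAP3d (edgeR adjusted p = 0.0403) and 1.37 ± 0.33 against WT (adjusted p = 0.0849). The call against YAP3d held in 4 of the 9 fits without 1 library. It was lost in a fit of these 2 groups alone and with the Gm10709 term. Gzmb was the sole gene to pass among 13 tested of 20 granule genes, whose median log2 difference was -0.18. Gzma stayed abundant, at 10193 ± 2089 in WT, 12210 ± 1682 in YAP3d and 10762 ± 2114 in YAP7d, with a difference between YAP7d and YAP3d of -0.18 ± 0.18 (edgeR adjusted p = 0.625). Ifng, the interferon gamma gene, averaged 621 ± 94.5, 354 ± 63.6 and 391 ± 218 in the 3 groups and did not pass in any comparison.

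**Figure D3:**
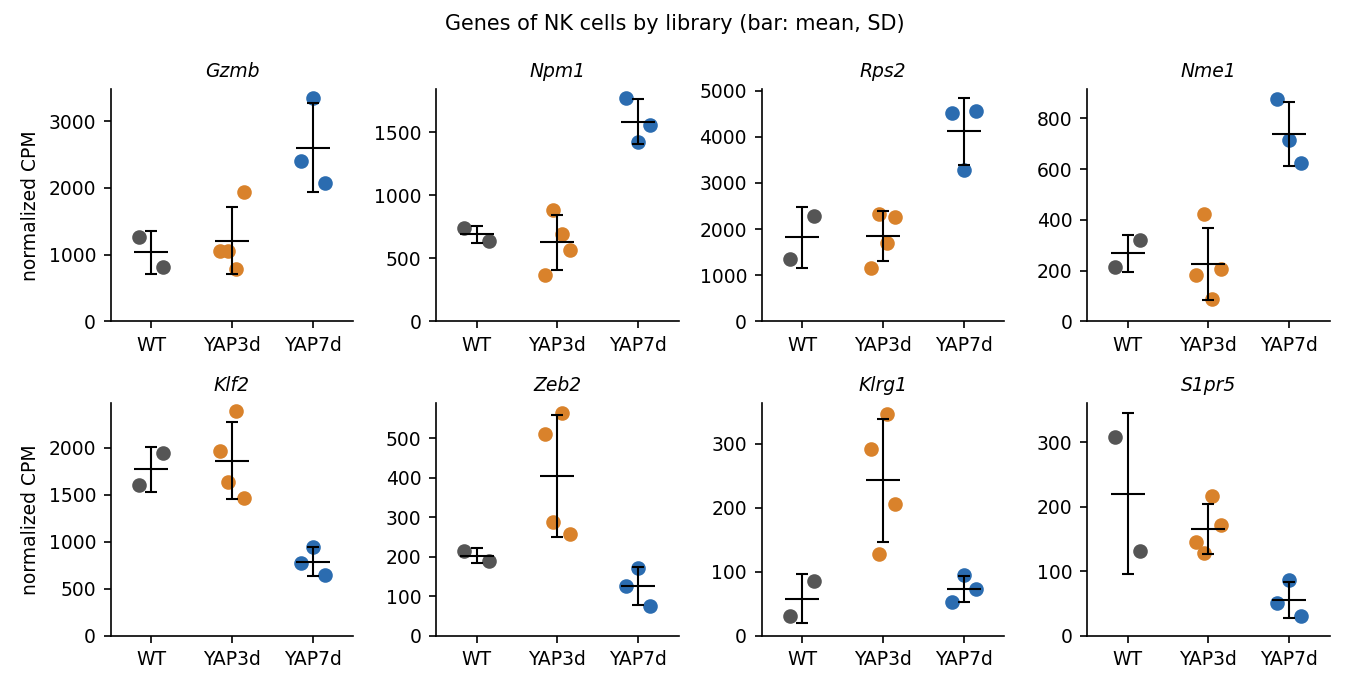
Normalized CPM in NK cells for 8 genes, 1 point per library, with the group mean and SD as bars, on axes from 0. The YAP7d points of Gzmb, Npm1, Rps2 and Nme1 lie above, and those of Klf2, Zeb2 and S1pr5 below, all points of the other groups, while the YAP3d points of Klrg1 lie above those of both other groups.

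The start regions of S1pr5, Klf2 and Gzmb are shown because these genes moved in NK cells between YAP3d and YAP7d, the first and second down and the last up. Each is the RefSeq window (GRCm38.p6) from 250 bases before to 50 after the gene's start, 5′ to 3′ on the gene's strand. S1pr5 is on the minus strand at chr9:21248394-21248693, Klf2 on the plus strand at chr8:72318812-72319111 and Gzmb on the minus strand at chr14:56262285-56262584. Capitals mark matches, on either strand, to 5 short motifs: GTGTGA for T-box factors, CCACNCCC for KLF factors, CACCTG for ZEB factors, TGANTCA for AP-1 and TGTGGT for RUNX factors. Klrg1 is named without a sequence.
S1pr5: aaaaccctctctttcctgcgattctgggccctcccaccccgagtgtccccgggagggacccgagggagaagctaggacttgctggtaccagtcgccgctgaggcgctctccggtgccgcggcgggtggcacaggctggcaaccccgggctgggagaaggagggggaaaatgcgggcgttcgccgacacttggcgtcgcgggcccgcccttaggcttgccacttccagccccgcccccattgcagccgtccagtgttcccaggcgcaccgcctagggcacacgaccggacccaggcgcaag
Klf2: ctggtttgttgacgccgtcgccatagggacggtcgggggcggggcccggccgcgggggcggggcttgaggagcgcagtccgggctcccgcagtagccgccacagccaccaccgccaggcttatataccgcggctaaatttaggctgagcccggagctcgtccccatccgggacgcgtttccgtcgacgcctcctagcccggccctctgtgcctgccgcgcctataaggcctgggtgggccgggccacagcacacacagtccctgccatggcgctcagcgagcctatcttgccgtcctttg
Gzmb: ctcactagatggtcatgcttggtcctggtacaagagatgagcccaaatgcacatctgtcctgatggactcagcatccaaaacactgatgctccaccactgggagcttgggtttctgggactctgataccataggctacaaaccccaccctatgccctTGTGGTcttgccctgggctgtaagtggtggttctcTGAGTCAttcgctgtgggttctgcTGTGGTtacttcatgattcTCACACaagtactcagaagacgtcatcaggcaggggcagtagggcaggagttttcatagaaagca
In the Gzmb window the T-box and AP-1 letters occurred 1 time each and the RUNX letters 2 times, without overlap. The S1pr5 and Klf2 windows held no match to the 5 motifs, nor did the first of the 4 Zeb2 windows. Over 27025 RefSeq windows of the same length, 14.4% held the T-box letters, 17.6% the KLF, 20.0% the ZEB, 7.93% the AP-1 and 16.9% the RUNX letters, so single matches are common and are a description of the letters alone.

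Activating receptor genes as a group lay lower in YAP7d than in YAP3d without passing, while the median of inhibitory receptor genes changed sign under other settings (-0.66 to 0.10). Of 7 tested activating receptor genes (12 listed, 3 of them in the rule), 0 passed and all 7 had a negative difference (median -0.69), with Klrk1, which encodes NKG2D, at -0.41 ± 0.20. Of 7 tested inhibitory receptor genes (14 listed), 2 fell, Klrg1 and Klra9, and the median was -0.43. Klra9 had 801 and 688 normalized CPM in WT, 504 to 1215 in YAP3d and 353 to 463 in YAP7d, where it was lower by -1.18 ± 0.28 (edgeR adjusted p = 0.0361). That call held in 2 of the 9 fits without 1 library, and not with a gate on absent residency genes in place of Klra4, Klra8 and Cma1 (-0.98), with thinning (-0.68) or in NK cells without C1q (-0.42). Signal adaptors gave 0 of 15 called and a median of -0.07, with Tyrobp at -0.23 and Fcer1g at -0.20. Cytokine receptor genes gave 0 of 14 (median -0.59) and cytokine and chemokine genes 0 of 7 (median -0.43). Of 15 tested migration and adhesion genes, 1 fell, S1pr5, and the median was -0.48.

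Among transcription factors, the genes that passed were those already counted in the mature stage. Of 12 tested among 18 listed, 2 fell, Klf2 and Zeb2, and 10 had a negative difference to YAP3d (median -0.72). Tbx21, which encodes T-bet, had 216 and 113 normalized CPM in WT, 136 to 292 in YAP3d and 100 to 118 in YAP7d, and the difference to YAP3d of -0.96 ± 0.33 did not pass (edgeR adjusted p = 0.125). Eomes averaged 120 ± 83.0, 256 ± 92.9 and 179 ± 33.1 and did not pass either. Of 21 tested immediate early and heat shock genes, 3 fell between YAP3d and YAP7d, Fos, Junb and Btg2 (median -0.73), and 1, Junb, between WT and YAP7d (median -0.85). Junb, an AP-1 subunit gene, had 3326 and 4005 in WT, 2648 to 3263 in YAP3d and 1356, 1051 and 2153 in YAP7d. It was lower by -0.94 ± 0.22 against YAP3d (edgeR adjusted p = 0.0357) and by -1.27 ± 0.25 against WT (adjusted p = 0.0470). The call against YAP3d held in 2 of the 9 fits without 1 library. The call against WT was lost with other size factors, without the filter on low counts and with thinning. Genes of this list are known to respond to tissue dissociation. Fos had 493 and 933, 336 to 1085, and 173, 141 and 228 in WT, YAP3d and YAP7d. Btg2, an antiproliferative gene, had 1878 and 1084, 809 to 2152, and 523, 549 and 484.

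Further rises over YAP3d are given as single genes, picked out after their values were seen. Npm1, which encodes the nucleolar protein nucleophosmin (chromosome 11, 33152498 to 33164142), had 739 and 641 normalized CPM in WT, 365, 887, 694 and 568 in YAP3d and 1773, 1420 and 1555 in YAP7d, a log2 difference to YAP3d of 1.28 ± 0.24 (edgeR adjusted p = 0.0157). Ranbp1, of nuclear transport, averaged 164 ± 72.5, 170 ± 146 and 655 ± 144, and Nme1, a nucleoside diphosphate kinase gene, 268 ± 74.1, 225 ± 142 and 739 ± 127. Fbl and Nhp2, genes of ribosomal RNA modification, rose by 1.41 ± 0.36 and 1.77 ± 0.42 (edgeR adjusted p = 0.0460 and 0.0361). These calls held in 3 and 4 of the 9 fits without 1 library. The call of Fbl was also lost with the gate on absent residency genes and with the replicate term. Dut, of nucleotide metabolism, rose by 2.07 ± 0.48, Nap1l1, a histone chaperone gene, by 1.36 ± 0.35, Bola2 by 1.56 ± 0.38 and Mif, a cytokine gene, by 1.53 ± 0.38 over YAP3d. YAP3d replicate 2 bore on several of these values: without it the log2 differences were 3.31 for Dut, 2.33 for Mif, 2.32 for Ranbp1 and 2.101 for Nme1.

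Ribosomal protein genes were grouped after the results were seen, so their count is a description. Of 79 tested, 13 were higher in YAP7d than in YAP3d, 1 was lower and 76 had a positive difference (median 0.52), which in T cells held for 69 (median 0.26). The 1 lower, Rps27rt, is a copy related to Rps27, and reads could be shared between such copies. Together, 93 ribosomal protein genes took 19.8% and 21.3% of NK UMIs in WT, 17.7% to 22.2% in YAP3d and 24.5% to 28.6% in YAP7d. Rps2 averaged 1822 ± 661, 1861 ± 542 and 4117 ± 733 normalized CPM in WT, YAP3d and YAP7d.

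Energy genes leaned in 1 direction by small amounts. Of 40 respiratory chain genes, 0 passed, but 39 had a positive difference between YAP7d and YAP3d (median 0.47) and all 40 between YAP7d and WT (median 0.44), where 1289 and 1320 of the 2572 genes tested were positive. Between YAP3d and WT 19 of the 40 were positive. Of 9 tested glycolysis genes 1 rose over YAP3d, Tpi1, which encodes triosephosphate isomerase (1.29 ± 0.34, edgeR adjusted p = 0.0492), with a median of 0.59. Of 7 type I interferon genes 0 passed (median 0.95, from -0.22 to 1.83 under other settings), and of 14 MHC class I genes 0 passed (median -0.11). Only 3 genes each of the interferon gamma GTPase and ILC1 lists were tested, and 0 passed. Among 22 S100, galectin and cytoskeleton genes 1 rose over YAP3d, Lgals3, from 45.1 ± 31.5 to 225 ± 171 normalized CPM (median 0.32). It was highest in YAP7d replicate 3, at 422, the library with the most C1q UMIs per retained NK cell, and without it the log2 difference of 2.15 went to 1.25 and did not pass.

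**Figure D4:**
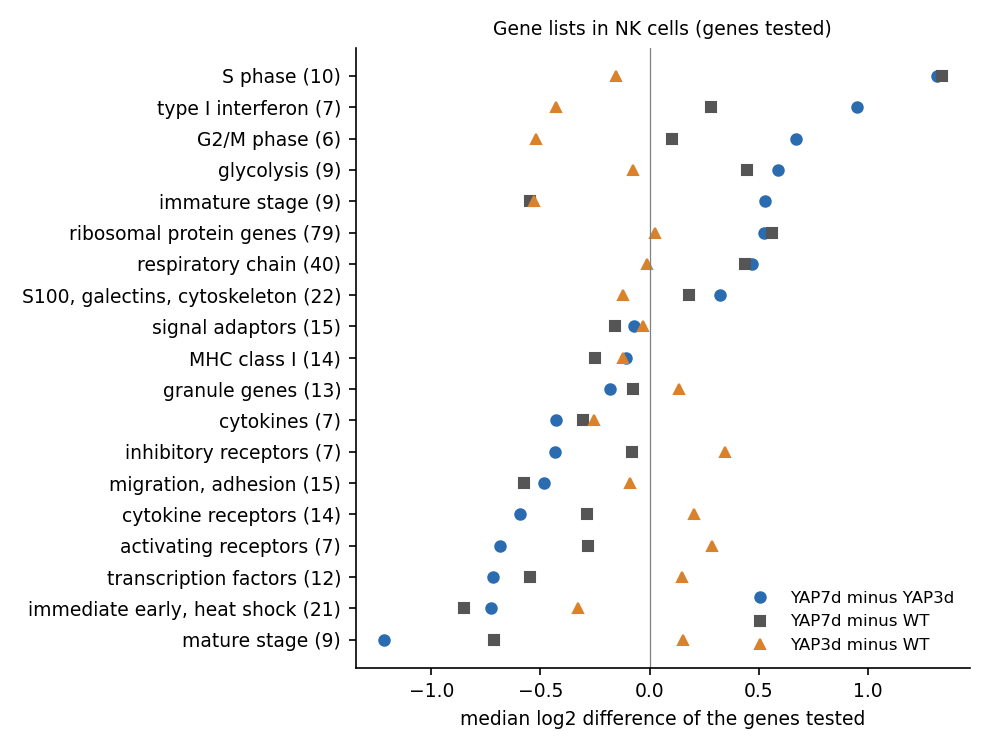
Median log2 difference of the tested genes of each NK, cell cycle, metabolic and stress list with at least 6 tested genes (number tested in brackets) in 3 comparisons, without the lists of other cell types; YAP7d is shared by 2 of them, as are WT and YAP3d. Among the lists shown, mature stage genes lie lowest in YAP7d minus YAP3d (-1.22) and S phase genes highest (1.32); ribosomal protein genes were grouped after seeing values.

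Of the cell cycle genes, 1 of 16 tested passed. Of 10 tested S phase genes, 1 rose over YAP3d, Dut, and 9 had a positive difference (median 1.32, from 0.35 to 1.93 under other settings). Against WT 0 passed and all 10 were positive (median 1.34, from 0.25 to 5.83). Of 6 tested G2/M genes 0 passed and all 6 were positive (median 0.67, from -0.02 to 3.72 under other settings), while against WT 4 of 6 were positive (median 0.10, from -2.04 to 6.59). Mki67, a marker of cycling cells, had 0 and 47.1 normalized CPM in WT, 0, 160, 0 and 0 in YAP3d and 171, 133 and 55.3 in YAP7d (0.90 ± 0.69 against YAP3d, edgeR adjusted p = 0.508). With each cell thinned to 1500 UMIs, cells with 2 or more UMIs of both lists were 50.5% ± 7.14 of WT NK cells, against 48.4% ± 20.6 for YAP3d and 59.6% ± 22.5 for YAP7d, and the 3 groups gave an exact permutation p = 0.75. Unthinned, they were 88.6%, 83.3% and 96.8%. T cells gave 29.3%, 31.3% and 42.4% by the same threshold, so it does not mark dividing cells alone. With the G2/M list alone, chosen later, the shares were 15.7% ± 9.29, 9.73% ± 8.12 and 24.8% ± 5.34 in NK cells (exact permutation p = 0.113), and 4.02%, 7.08% and 11.9% in T cells.

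Several falls and rises had no detectable difference from T cells. Malat1, a nuclear long non-coding RNA, had 30700 and 23839 normalized CPM in WT, 21553 to 32213 in YAP3d and 12663, 12764 and 13045 in YAP7d. The difference to YAP3d was -1.09 ± 0.16 (log2) (edgeR adjusted p = 0.00317), the T cell difference was -0.61, and the difference between NK and T cell changes was -0.24 ± 0.14 (adjusted p = 0.634). PISD, a symbol that RefSeq did not match, was lower by -2.36 ± 0.41 against WT (edgeR adjusted p = 0.0175) and -1.53 ± 0.38 against YAP3d (adjusted p = 0.0403). Without WT replicate 2 the former was -1.26 and did not pass. Rbm3, which encodes a cold-inducible RNA-binding protein, rose by 1.54 ± 0.24 in NK cells (edgeR adjusted p = 0.00317) and had a T cell difference of 1.23. Between YAP7d and YAP3d, Malat1 and Rbm3 passed in all 9 fits that left out 1 library, but neither passed with libraries of at least 10 NK cells or in NK cells without C1q. The fall of Malat1 against WT passed in 4 of those 9 fits. Mxd4, encoding a Myc antagonist, fell by 2.11 ± 0.39 (log2), Dapk2, a kinase gene, by 1.87 ± 0.42, and Gm11713, a predicted gene, by 2.36 ± 0.53. These 3 were named by a rule that asks for groups without overlap. Dapk2 had 92.4 and 18.8 normalized CPM in WT, 193 ± 60.7 in YAP3d and 49.6 ± 11.6 in YAP7d, so that YAP7d overlapped WT.

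Igfbp7 and Sepp1 stood among the falls but are transcripts of other liver cells. Igfbp7, of endothelial cells, had 154 and 179 normalized CPM in WT, 0, 7.99, 0 and 241 in YAP3d and 0, 15.7 and 6.91 in YAP7d, a pattern carried by YAP3d replicate 4, and T cells moved with it (-3.90 in T cells, -3.98 ± 1.04 in NK cells). Sepp1, of hepatocytes and macrophages, was lower by -2.33 ± 0.55, with a T cell difference of -1.02. Without YAP3d replicate 4 the NK differences were -0.16 for Igfbp7 and -1.26 for Sepp1, and neither passed. The 12 endothelial genes together ranged from 291 to 563 CPM in NK cells of WT, 107 to 868 in YAP3d and 69.4 to 120 in YAP7d. A list of 9 macrophage genes other than C1q ranged from 32.3 to 356, 0 to 442 and 152 to 1418 CPM and the monocyte and neutrophil list from 518 to 666, 704 to 845 and 495 to 3343, both highest in YAP7d replicate 3. The T cell list ranged from 32.3 to 159, 0 to 275 and 8.96 to 18.4 CPM, with Cd8a and Cd5 at 0. Dendritic genes ranged from 76.8 to 1210 in YAP3d and 174 to 1259 in YAP7d, B cell genes from 0 to 134 over all libraries, hepatocyte genes from 18.8 to 192 and erythroid and platelet genes from 0 to 64.7. The part of these transcripts in the results was not tested.

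T cells of the same livers served to ask which changes differed between lymphocytes. In T cells alone 1 of 5520 genes passed between YAP7d and YAP3d (0.0181%) and 0 between YAP7d and WT (0%; 416 at an unadjusted p below 0.05 by edgeR). The change in NK cells minus that in T cells, with the library as a block, was called for 41 of 6221 genes in YAP7d against YAP3d (0.659%; 30 higher, 0.482%, and 11 lower, 0.177%). In YAP7d against WT it was called for 32 (0.514%; 15 higher, 0.241%, and 17 lower, 0.273%), and in YAP3d against WT for 5, all lower (0.0804%). Over all genes tested the median of this difference was 0.12 and 0.15 in the comparisons of YAP7d with YAP3d and WT. Of the 37 genes that rose in NK cells, 9 differed from T cells (Ptma, Rpl36a, Fbl, Bola2, Gzmb, Npm1, Nme1, Rps2 and Rps18), and all 37 had a positive difference in T cells too, with a median of 0.47 beside 1.15 in NK cells. Of the 20 that fell, 5 differed (Klf2, Klrg1, Klra9, Rgs1 and Txnip), and 13 of the 15 that could be tested in T cells had a negative difference there.

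The p-values of the NK minus T test rest largely on a spread pooled over genes, and not on the libraries alone. Klf2 moved apart from T cells. Its T cell level was 1005 ± 442, 998 ± 367 and 1309 ± 116 normalized CPM in WT, YAP3d and YAP7d, and the NK change minus the T cell change was -1.42 ± 0.24 against YAP3d (edgeR adjusted p = 8.01e-06) and -1.46 ± 0.28 against WT (adjusted p = 0.000357). Gzmb averaged 274 ± 38.8, 310 ± 161 and 323 ± 55.3 in T cells, and its change differed by 0.98 ± 0.26 (edgeR adjusted p = 0.0378) and 1.25 ± 0.31 (adjusted p = 0.0225). Npm1 differed by 1.14 ± 0.25 (edgeR adjusted p = 0.00264). Txnip, which encodes a brake on glucose uptake, had 112 to 258 normalized CPM in NK cells of YAP3d and 31.4 to 86.4 in YAP7d, and was 232 ± 66.7 and 246 ± 43.8 in T cells, a difference in change of -1.50 ± 0.38 (edgeR adjusted p = 0.0234). Rgs1, a regulator of chemokine receptor signals, fell from 861 ± 386 to 220 ± 111 in NK cells and differed by -1.11 ± 0.30 (edgeR adjusted p = 0.0417). Klrg1 and Klra9 were at 10.6 and 3.44 CPM in T cells of YAP3d, so their comparison rests on few T cell counts. With libraries of at least 10 cells of each class, 0 genes differed between NK and T cells in YAP7d against YAP3d. That setting keeps WT replicate 2 alone in its group, so nothing is read from YAP7d against WT there.

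**Figure D5:**
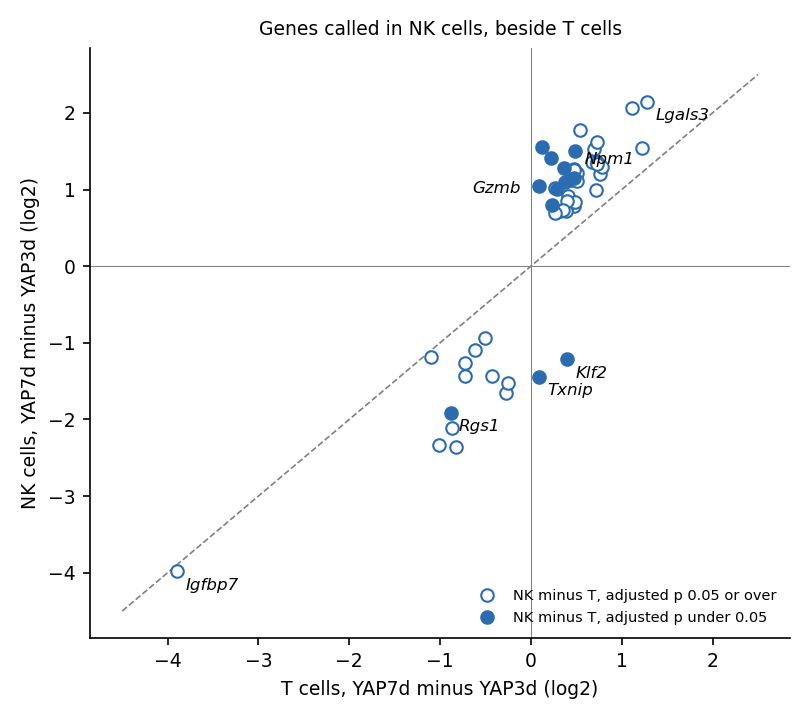
Log2 difference of YAP7d minus YAP3d in T cells (horizontal) and NK cells (vertical) for the 52 genes called in NK cells and tested in T cells, with the line of equal change dashed. Filled points are the 12 genes whose NK change differed from the T cell change; Klf2 and Txnip fell in NK cells at a T cell difference of 0.40 and 0.09.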

How the data were processed

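Single-cell 3′ RNA libraries were made from whole livers of 9 mice on droplets. The authors aligned reads to mm10 with Cell Ranger and used Seurat version 2; the deposited table holds raw UMI counts per gene (27998) and cell, not normalized. All 9 libraries were used, with 0 columns left aside. The NK cells and the gene lists were chosen with earlier results of these data known.

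NK, ILC1-like and T cells were gated on UMIs as the report states, T cells by at least 2 UMIs of Cd3d and Cd3e, without Ncr1, Klre1, Cd79a and at the same C1q limit. Counts were summed per library. The 12 rule genes were removed, low genes filtered by filterByExpr, libraries scaled by TMM, and all 3 groups fitted with edgeR 4.0.16 (quasi-likelihood, R 4.3.3, adjusted p below 0.05), tested on simulated data. DESeq2 1.42.0 was the second tool. Shares were compared with exact two-sided permutation tests over libraries (scipy 1.17.1, Python 3.11.15). Intervals (95%) and the floor of 3 counts cover counting error only. A mouse gave 1 library, and nothing states separate processing, so exact p-values measure the spread between libraries. The edgeR p-values also draw on a spread pooled over genes, most of all in the NK minus T fit. NK sums of 21312 to 446449 UMIs put a floor of 3 counts at 141 to 6.72 CPM.

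Genes named are at most the 10 largest rises and falls per comparison (adjusted p below 0.05, mean of at least 50 CPM in a group, no overlap), the 3 most abundant tested and all called members of each list, and a fixed set of NK genes. Others named were chosen after their values were seen. Coordinates, promoter windows and symbols come from RefSeq GRCm38.p6, which matched 135 of 136 symbols looked up. Alternatives covered size factors, filters, thinning, gates, library subsets, left-out replicates and a replicate term. Replicate numbers did not pair the libraries.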

Additional observations from a re-analysis of the deposited data

Results flagged for a closer look

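In YAP3d, the only group of 4 libraries, 12 of 132 genes examined had 1 library far from the other 3 in normalized CPM. No rate over all genes tested was taken, so this count is a description. The outlying values were Cd3g 232, Cd74 619.9, H2-Aa 309.95, H2-Ab1 207, Ifngr1 1058, Igfbp7 241, Ldha 519.6, Ly6d 94.7, Mif 352, Mki67 159.9, Nkg7 5467 and Top2a 384 normalized CPM.

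The change in NK cells differed from that in T cells of the same libraries, by edgeR's test of the difference, in 35 of 124 values examined. These values belong mostly to genes called or listed earlier, and over all 6221 genes the test called 0.514% in YAP7d against WT and 0.659% in YAP7d against YAP3d. In YAP7d against WT the NK minus T log2 difference was 0.92 for Ptma, -1.53 for Rgs1, 1.28 for Xcl1, -1.41 for Fcer1g, 0.97 for Rpl36a, -1.19 for Tyrobp, -1.46 for Klf2, 1.25 for Gzmb, -3.36 for Cd3g, -0.74 for Ccl5, -1.95 for Cks2, 2.08 for Ranbp1 and 1.04 for Rps2. In YAP7d against YAP3d it was 0.97 for Ptma, -1.11 for Rgs1, 1.59 for Xcl1, -1.42 for Fcer1g, 0.96 for Rpl36a, 2.27 for S100a8, -1.50 for Txnip, -2.28 for Klrg1, -3.32 for Klra9, 1.37 for Fbl, -1.71 for Tyrobp, 1.60 for Bola2, -1.42 for Klf2, 0.98 for Gzmb, 0.96 for Hspa8, -2.69 for Cd3g, 1.14 for Npm1, -0.74 for Ccl5, 1.20 for Nme1, -1.26 for Ly6c2, 0.97 for Rps2 and 0.80 for Rps18. Between YAP7d and YAP3d, Tyrobp and Fcer1g differed in NK cells by -0.23 and -0.20, without passing, and their T cell differences were 1.52 and 1.38. Cd3g in NK cells rested on few counts, 54 over all libraries. ILC1-like cells, for which cells with Cd3d or Cd3e were also left out, held 436.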

How the results depend on the processing

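Calls depended on the processing more than directions did, though the called genes were chosen for their difference in these same libraries. For genes called between YAP7d and WT (3 as reported), no filter on low counts gave 19, thinning to 1500 UMIs 1, NK cells without C1q 1, a gate on absent residency genes 7, a fit of these 2 groups alone 13, a term for libraries with Gm10709 transcripts 0 and DESeq2 56. For YAP7d against YAP3d (57), the same settings gave 141 without filter, 24 thinned, 0 without C1q, 3 with the Gm10709 term and 126 by DESeq2, and libraries with at least 10 NK cells gave 0. YAP3d against WT (0) gave 4 without filter. YAP7d and WT differ fully in Gm10709, so the term for it rests on YAP3d, the only group with both kinds of library. NK minus T changes gave 14 (YAP7d against WT) and 0 (YAP7d against YAP3d) with at least 10 cells of each class, and 27 for the latter without filter. With at least 10 cells of each class, WT replicate 2 stood alone in its group. The count for YAP7d against WT there took its spread from the other groups, so nothing is read from it. Equal replicate numbers did not go with correlated deviations (-0.08 to 0.11), and the replicate block gave 25, 3 and 73 calls for YAP7d against WT, YAP3d against WT and YAP7d against YAP3d, with Igfbp7 turning to 0.10.

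The share of all cells, YAP7d minus YAP3d, was -0.392 points with NK cells without C1q, a limit that itself removes YAP7d NK cells, where the lymphocyte share of the 3 groups gave an exact p = 0.632 and YAP7d minus YAP3d and WT were 8.11 and 10.6 points. The lymphocyte share of the 3 groups passed with thinning (exact permutation p = 0.0127, YAP7d minus YAP3d 24.5 points). It also passed without the C1q limit (exact permutation p = 0.0286). Thinning came before the gates, so it also loosened the C1q limit and lowered the T cell counts.

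Leaving out 1 library gave 0 to 22 calls for YAP7d against WT, 0 to 3 for YAP3d against WT and 2 to 94 for YAP7d against YAP3d, and 6 to 35 and 3 to 106 NK minus T calls for YAP7d against WT and YAP3d. Shares of all cells differed by 1.70 to 5.14 points for YAP7d minus WT, 0.108 to 1.37 for YAP3d minus WT and 0.785 to 4.23 for YAP7d minus YAP3d. Lymphocyte shares differed by 16.2 to 26.4 points for YAP7d minus WT, 13.8 to 24.0 for YAP7d minus YAP3d and -0.683 to 4.06 points for YAP3d minus WT. Cycling shares differed by -2.70 to 19.7 points for YAP7d minus WT, -8.66 to 7.40 for YAP3d minus WT and -0.626 to 21.8 for YAP7d minus YAP3d. The cause of these changes was not tested, other than fewer libraries, cells or genes where a setting removes them. Over the 57 and 3 calls of YAP7d against YAP3d and WT, 303 values under other settings kept their side of the threshold and direction, 269 kept the direction alone and 1 turned. With a library left out, 243 kept both and 297 the direction alone. The median over all genes moved to 0.344 and 0.255 without filter (YAP7d against WT and YAP3d), 0.231 and 0.153 without WT replicate 2 (YAP7d and YAP3d, each against WT) and -0.208 by DESeq2 (YAP7d against YAP3d). Medians of the signal adaptor, granule, cytokine and MHC class I lists between YAP7d and YAP3d changed sign under some settings. Libraries with 5 to 9 NK cells limit what low genes can show.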
